A study of Saccharomyces cerevisiae with 12 samples.

Results

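The cytosolic ribosomal protein genes of Saccharomyces cerevisiae were examined over 12 Affymetrix GeneChip arrays of total RNA from chemostat cultures. Members were the protein-coding genes whose symbol begins with RPL, RPS or RPP followed by a digit and that have a probe set assigned to that gene alone, and each gene was read from its probe set with the highest mean log2 intensity. Of 138 genes with such a symbol, 81 met the rule, out of 5656 genes with a probe set of their own. The symbol pattern also takes in RPP1 (YHR062C), a protein subunit of RNase P, which was kept apart. That left 80 ribosomal protein genes, 47 of the large and 33 of the small subunit. All 80 were among the 5321 genes tested. Of the genes with no probe set of their own, 54 share probe sets with another gene, usually the paralogue.

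One strain was the MATa LEU3 deletion strain CEN.PK540-3A, in which most of the reading frame is replaced by a kanamycin marker flanked by loxP sites, and the other strain was the MATa LEU3 reference CEN.PK113-7D. Both are haploid and prototrophic, and each gave 3 arrays from nitrogen-limited glucose medium and 3 from carbon-limited ethanol medium. The dilution rate was 0.10 per h in all cultures, which were kept at pH 5.0 and 30 °C. Nitrogen-limited cultures received 1.0 g per l ammonium sulfate with glucose feeds of 53 g per l for the deletion strain and 59 g per l for the reference strain. Residual glucose was 17 g per l for both strains. Carbon-limited cultures received 6.0 g per l ethanol and 5.0 g per l ammonium sulfate. Limitation is therefore tied to the carbon source, and the 2 cannot be told apart. Nothing in the labels says that arrays of a group came from separate cultures, so p-values measure the spread between these arrays only.

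The yeast ribosome joins a large and a small subunit, and most of its proteins are encoded by a pair of paralogues named A and B. Transcription of these genes runs through Rap1, Fhl1, Ifh1 and Sfp1 under the TORC1 and protein kinase A pathways, and their transcript levels are known to follow the growth rate. LEU3 encodes an activator and repressor of the branched-chain amino acid pathway that responds to an intermediate of leucine synthesis. Chemostats hold the growth rate at the dilution rate, which was the same in all 4 groups.

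LEU3 read 0.3 to 0.6 on the 6 deletion arrays, against 96.3 to 110.4 in nitrogen-limited and 59.9 to 76.7 in carbon-limited reference cultures, as the labels state. The actin ratio, the intensity of its 3′ probe set over that of its 5′ probe set and a measure of RNA integrity, was 1.54 to 1.91 on deletion arrays and 2.45 to 3.29 on nitrogen-limited reference arrays. It was 3.31, 9.27 and 14.0 on carbon-limited reference arrays 1, 2 and 3, whose brightest probe sets also reached 9190, 13867 and 14005, against 4876 to 8064 on deletion arrays. The bacterial control transcript ThrX-3 was bright on arrays 2 and 3 of the nitrogen-limited reference group, at 3094.8 and 2747.7, and reached no more than 1.6 elsewhere. Values without these arrays stand beside many of the results, though not all. Leaving out arrays 2 and 3 of a group leaves array 1 alone, so fewer calls there can come from lower precision. The authors scaled all arrays to a common trimmed mean of 150.1 to 150.14, so a change here is relative to the other transcripts of an array.

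Ribosomal protein transcripts were among the brightest on the arrays. Intensities of the 80 genes ran from 35.6 to 8499 with a median of 1555, against a median of 103 over all genes tested. Their share of the summed intensity was 11.2 ± 0.58% in nitrogen-limited deletion cultures and 9.54 ± 0.38% in nitrogen-limited reference cultures (SD, n = 3 each). In carbon-limited medium it was 9.08 ± 0.57% for the deletion strain and 10.9 ± 0.47% for the reference strain (SD, n = 3 each). The 3 arrays of the deletion strain lay above those of the reference strain in nitrogen-limited medium and below them in carbon-limited medium.

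Individual genes showed the same crossing. Setting each gene to its own mean over the 12 arrays, the median deviation of the 80 genes was 0.17, -0.02 and 0.15 on the nitrogen-limited deletion arrays, against -0.15, -0.07 and -0.10 on the nitrogen-limited reference arrays. It was -0.07, -0.23 and -0.10 on the carbon-limited deletion arrays, against 0.12, 0.13 and 0.20 on the carbon-limited reference arrays. Among the 4 group means, 30 genes were highest in nitrogen-limited deletion cultures and 44 in carbon-limited reference cultures. Only 5 were highest in nitrogen-limited reference and 1 in carbon-limited deletion cultures. The gap between a gene's highest and lowest group mean had a median of 0.51 on the log2 scale, under 0.3 for 10 genes and over 1 for 7.

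**Figure D1:**
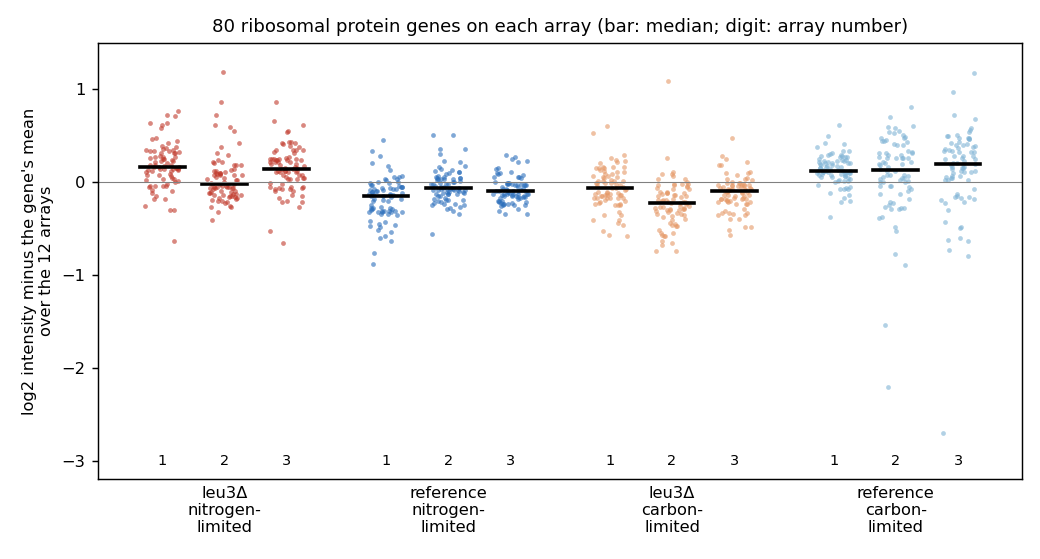
Each point is 1 of the 80 ribosomal protein genes on 1 array, as log2 intensity minus the gene's mean over the 12 arrays, with black bars at the median and the array number below. Medians lay above 0 on 2 of 3 nitrogen-limited deletion arrays and all 3 carbon-limited reference arrays, and the 3 points below -1 are RPL7A and RPL7B on carbon-limited reference arrays 2 and 3.

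Extremes were set by a few genes. RPL28, the large-subunit protein at which cycloheximide resistance arises, moved least, with a gap of 0.08 on the log2 scale between its group means. RPL7B moved most, with a gap of 2.85, followed by its paralogue RPL7A with 1.34 and then RPL13A, RPS28B and RPS1B with 1.15, 1.13 and 1.02. A probe set shared by RPL7A and RPL7B had no strain or limitation difference above 0.08.

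The effect of the LEU3 deletion under nitrogen limitation was small, and for most of the genes that passed it was upwards. In limma with Benjamini-Hochberg adjustment over all tested genes, 9 ribosomal protein genes were higher in the deletion strain, 1 was lower and 70 did not pass an adjusted p of 0.05. Of all tested genes, 6.05% were higher and 16.1% lower. The median log2 difference was 0.19 over the 80 genes, 71 of them above 0, against -0.11 over all tested genes. Leaving out nitrogen-limited deletion array 1, 2 or 3 left 6, 5 or 4 calls, and leaving out nitrogen-limited reference array 1 or 3 left 5 in either case.

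RPS26B (YER131W) encodes one copy of a small-subunit protein at the mRNA exit channel. It read 642, 606 and 654 in deletion cultures, against 276, 453 and 368 in reference cultures, so the groups did not overlap. The difference was 0.82 ± 0.18 on the log2 scale (SE), or 1.77-fold, with a limma adjusted p of 0.00425. RPL13A (YDL082W), a large-subunit gene, read 1212, 1180 and 1092 in deletion cultures, against 563, 740 and 695 in reference cultures, again without overlap, a log2 difference of 0.81 ± 0.18 (limma adjusted p = 0.0047).

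RPS1B (YML063W) encodes a small-subunit protein of the platform. It read 1428, 1172 and 1581 in deletion cultures, against 706, 807 and 738 in reference cultures, a log2 difference of 0.88 ± 0.23 (limma adjusted p = 0.0117). Every deletion array was above every reference array. RPL36A (YMR194W) read 2060, 2512 and 2148 in deletion cultures, against 1084, 1550 and 1417 in reference cultures, without overlap, a log2 difference of 0.74 ± 0.22 (limma adjusted p = 0.0231). RPS7B, RPL17A, RPL14B, RPL21A and RPL36B also rose, by 0.63, 0.58, 0.53, 0.48 and 0.36 on the log2 scale. RPL14B was the one called gene whose groups overlapped.

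RPS22B (YLR367W) was the one gene that fell. It read 1114, 1032 and 1195 in deletion cultures, against 1394, 1758 and 1601 in reference cultures, without overlap, a log2 difference of -0.50 ± 0.15 (limma adjusted p = 0.0211). Its probe set is of the family type, which can read near-identical transcripts. Without the nitrogen-limited reference arrays 2 and 3, which carry the bacterial control signal, 6 of the 10 calls remained: RPL13A, RPL14B, RPL17A, RPL21A, RPL36A and RPS26B. The lost calls had differences of 0.97 for RPS1B, 0.71 for RPS7B, 0.35 for RPL36B and -0.33 for RPS22B, with limma adjusted p of 0.0835, 0.0695, 0.248 and 0.328. The part of that signal in the result was not tested.

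Under carbon limitation the deletion strain had lower levels. In limma 23 ribosomal protein genes were lower, 2 were higher and 55 did not pass, against 10.7% lower and 17.4% higher of all tested genes. The median log2 difference was -0.29 over the 80 genes, 67 of them below 0, against 0.05 over all tested genes. Quantile normalization gave a median of -0.07 and 7 calls, and median-centring of the arrays -0.46 and 43. Carbon-limited reference arrays 2 and 3 had actin ratios of 9.27 and 14.0. With reference array 1 alone the median was -0.25. Most calls were lost in that fit, where lower precision alone can cost calls. With the actin ratio as a term in the fit the median was -0.19, none passed in limma, and 0 genes were higher and 8 lower at an unadjusted p under 0.05. Leaving out carbon-limited deletion array 2 alone gave 15 calls, and the part of RNA integrity in these differences was not tested further.

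RPL16B (YNL069C) encodes one copy of a large-subunit protein related to bacterial L13. It read 1048, 960 and 1080 in deletion cultures, against 1783, 2250 and 2190 in reference cultures. Reference array 1, with an actin ratio of 3.31, also lay far above all 3 deletion arrays. The log2 difference was -1.01 ± 0.14, or 2.01-fold lower, with a limma adjusted p of 0.000258, and -0.79 without reference arrays 2 and 3 (limma adjusted p = 0.0184). RPL6B (YLR448W), another large-subunit gene, read 758, 641 and 782 in deletion cultures, against 1378, 1129 and 1152 in reference cultures. Its groups did not overlap, with a log2 difference of -0.75 ± 0.14 (limma adjusted p = 0.00156) and of -0.93 without those 2 arrays (limma adjusted p = 0.00942).

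The other calls were lost without those 2 arrays. RPS26A (YGL189C) read 3692, 2535 and 3239 in deletion cultures, against 4326, 6098 and 8499 in reference cultures. The groups did not overlap, and array 1 was the lowest of the 3 reference arrays. Its log2 difference was -0.96 ± 0.21 (limma adjusted p = 0.00367), and -0.47 without reference arrays 2 and 3 (limma adjusted p = 0.178). RPL15A, RPP1B, RPL29, RPS31, RPL37B, RPL31A and RPL21A also fell, with log2 differences of -0.80, -0.71, -0.70, -0.67, -0.63, -0.61 and -0.60. Without reference arrays 2 and 3 these were -0.75, -0.35, -0.58, -0.58, -0.35, -0.40 and -0.53. RPS31 encodes a small-subunit protein made as a fusion with ubiquitin. The remaining 13 genes that fell, among them RPS2, RPS3, RPL30 and RPL32, had differences of -0.57 to -0.41.

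The 2 genes that were higher were the paralogues RPL7A (YGL076C) and RPL7B (YPL198W), which encode a large-subunit protein related to bacterial L30. RPL7B read 717, 494 and 672 in deletion cultures, against 355, 50.4 and 35.6 in reference cultures, so the groups did not overlap. RPL7A read 1230, 971 and 1128 in deletion cultures, against 719, 279 and 467 in reference cultures, also without overlap. Reference arrays 2 and 3 were the low ones for both genes. The log2 differences were 2.85 ± 0.59 for RPL7B (limma adjusted p = 0.00328) and 1.28 ± 0.25 for RPL7A (limma adjusted p = 0.00229). Without those 2 arrays they were 0.80 and 0.62 and did not pass, with limma adjusted p of 0.248 and 0.0884, and with the actin term the RPL7B value turned to -0.30. Both genes have the longest genomic spans among the members, 1662 and 1551 bases, introns included, against a median of 741.5. Each is read by a probe set with fewer probes. A probe set shared by the 2 copies had a carbon-limited strain difference of only 0.06 on the log2 scale.

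The 2 strain effects differed for many genes. The interaction, the strain effect under nitrogen limitation minus that under carbon limitation, was positive in limma for 25 ribosomal protein genes and negative for none at an adjusted p of 0.05, with 44 positive and 3 negative at an unadjusted p under 0.05. Of all tested genes, 5.24% had a positive and 13.1% a negative interaction. The median was 0.51 on the log2 scale over the 80 genes, 74 of them above 0, against -0.20 over all tested genes. Quantile normalization gave a median of 0.27 and 9 calls, median-centring 0.81 and 53, and the actin term 6 calls. With that term 148 of all tested genes had a positive and 269 a negative interaction, against 279 and 697 without it. By subunit, 14 of 47 large-subunit and 11 of 33 small-subunit genes passed, with medians of 0.52 and 0.45. The count of 25 became 11 or 12 without nitrogen-limited deletion array 1 or 3, 11 or 14 without nitrogen-limited reference array 1 or 3, and 11 or 15 without carbon-limited deletion array 2 or 3.

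Opposite effects in the 2 media were clearest for RPL21A (YBR191W), a large-subunit gene and the one member called in both strain contrasts. It read 2200, 2144 and 2041 in deletion cultures, against 1333, 1769 and 1490 in reference cultures, under nitrogen limitation. Under carbon limitation it read 1642, 1401 and 1600 in deletion cultures, against 2233, 2566 and 2246 in reference cultures. The groups were apart in both media and in opposite order, and the interaction was 1.09 ± 0.20 (limma adjusted p = 0.00286).

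RPL36A had the largest interaction, 1.23 ± 0.31 (limma adjusted p = 0.0137), followed by RPS1B with 1.16, RPS26A with 1.15 and RPL16B with 1.14. Next came RPL21A with 1.09, RPS26B with 1.05 and RPL15A with 1.01. RPL6B, RPL37B and RPL29 had interactions of 0.96, 0.87 and 0.80. Without carbon-limited reference arrays 2 and 3, 8 genes passed, and 7 of them were among the 25: RPL15A, RPL16B, RPL21A, RPL6B, RPS0B, RPS20 and RPS26B. Without nitrogen-limited reference arrays 2 and 3, 9 passed and 8 of them were among the 25.

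**Figure D2:**
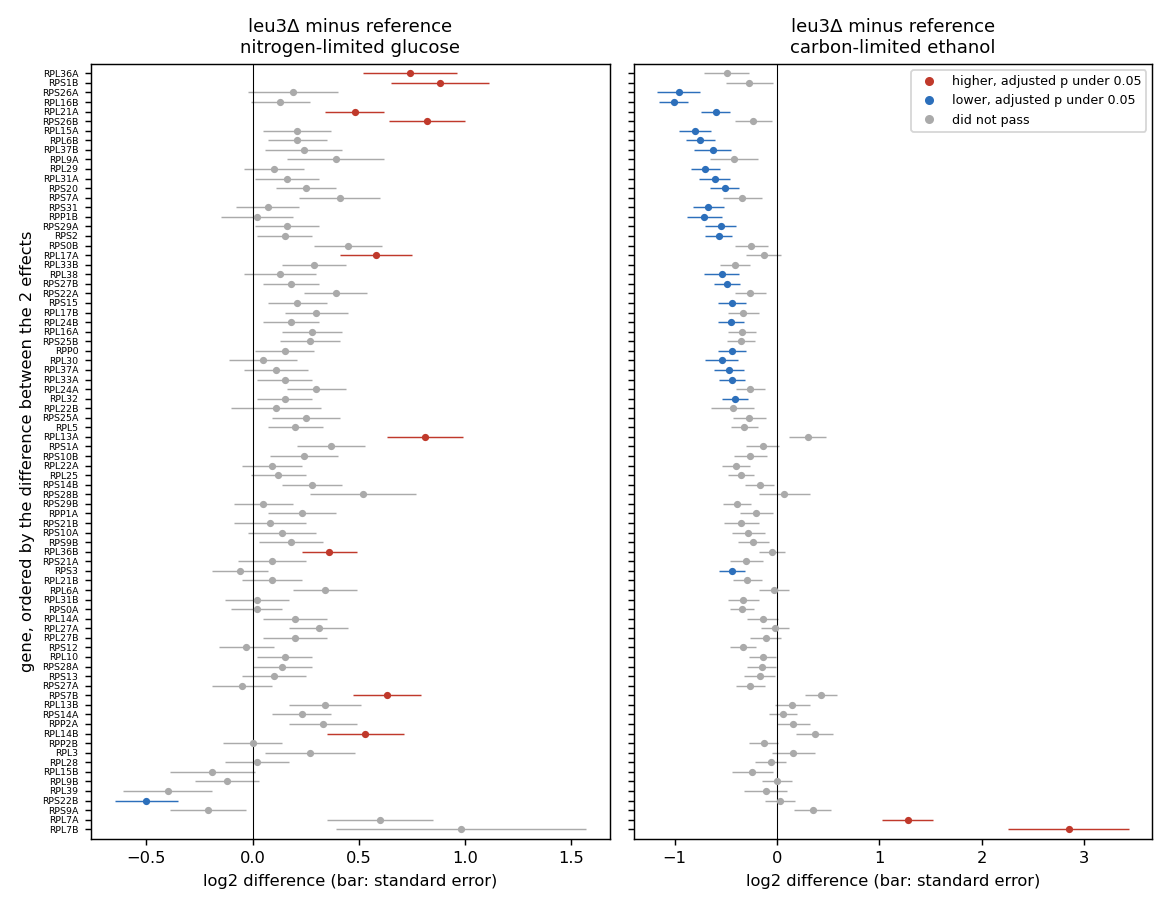
The log2 difference between deletion and reference strain is plotted for each of the 80 genes under nitrogen limitation (left) and carbon limitation (right), with bars of 1 standard error and genes ordered from the most positive interaction at the top. Red points passed as higher (9 left, 2 right), blue as lower (1 left, 23 right) at a limma adjusted p under 0.05, and grey did not pass; the horizontal scales differ.

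Within the deletion strain, ribosomal protein genes were mostly higher under nitrogen-limited glucose than under carbon-limited ethanol. In limma 23 of the 80 rose, RPL15B fell and 56 did not pass, against 18.1% higher and 17.8% lower of all tested genes. The median log2 difference was 0.25, against 0.02 over all tested genes. Actin ratios of these 6 arrays were 1.54 to 1.91, and this comparison uses no reference array other than for the shared variance. Without nitrogen-limited array 1 or 3 or carbon-limited array 2, 11, 12 and 11 genes passed in place of 24.

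RPS28B (YLR264W), a small-subunit gene whose product in yeast lowers its own mRNA, had the largest rise. It read 2582, 3065 and 2473 in nitrogen-limited cultures, against 1345, 1006 and 1595 in carbon-limited cultures, without overlap, a log2 difference of 1.06 ± 0.25 (limma adjusted p = 0.00412). RPS26B followed the same order, with the 642, 606 and 654 given above, against 380, 276 and 351 in carbon-limited cultures, a difference of 0.93 ± 0.18 (limma adjusted p = 0.000797). RPS1B rose by 1.02, RPL13A by 0.85, RPL36A and RPL6B by 0.75, RPL9A by 0.74, RPL16B by 0.67, RPS7A by 0.62 and RPL13B by 0.59 on the log2 scale. The remaining 13 rises were 0.41 to 0.56.

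RPL15B (YMR121C) was the exception. It read 338, 463 and 334 in nitrogen-limited cultures, against 760, 568 and 599 in carbon-limited cultures, without overlap, a log2 difference of -0.77 ± 0.20 (limma adjusted p = 0.00722). Its paralogue RPL15A rose by 0.53 ± 0.16 in the same cultures (limma adjusted p = 0.0165).

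Within the reference strain the median log2 difference between nitrogen and carbon limitation was -0.26 over the 80 genes, against 0.19 over all tested genes, and it was 0.09 after quantile normalization. In limma 23 genes were lower, 2 were higher and 55 did not pass, against 14.9% lower and 32.6% higher of all tested genes. After quantile normalization 3 were lower and 7 higher. With the actin ratio as a term 2 of the 25 calls were left, RPL9B and RPS14B. That fit called 823 of all tested genes higher and 466 lower, against 1737 and 795 without the term. Without carbon-limited reference arrays 2 and 3, 7 of the 25 calls were left: RPL17A, RPL21A, RPL9B, RPS14B, RPS2, RPS27B and RPS3.

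RPS27B (YHR021C), a small-subunit gene, read 2070, 2249 and 2080 in nitrogen-limited cultures, against 2991, 3718 and 3548 in carbon-limited cultures. The groups did not overlap, and the log2 difference was -0.68 ± 0.13 (limma adjusted p = 0.000812). With the actin term it was -0.48 (limma adjusted p = 0.0782), and the fall was not called after quantile normalization. RPS14B (YJL191W), whose pre-mRNA is bound by its own product in yeast, read 373, 447 and 460 in nitrogen-limited cultures, against 705, 665 and 634 in carbon-limited cultures. These groups were also apart, with a log2 difference of -0.65 ± 0.14 (limma adjusted p = 0.00161).

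RPS26A, RPP1B and RPL15B had the largest falls, -0.99, -0.86 and -0.82 on the log2 scale. None of these 3 passed without carbon-limited reference arrays 2 and 3, where they were -0.50, -0.51 and -0.38. RPL37B, RPS2, RPL21A, RPL17A and RPS3 fell by 0.67, 0.64, 0.62, 0.58 and 0.57 on the log2 scale. RPL9B (YNL067W) went the other way: it read 648, 732 and 610 in nitrogen-limited cultures, against 397, 396 and 458 in carbon-limited cultures, a log2 difference of 0.67 ± 0.15 (limma adjusted p = 0.00202). Its groups did not overlap. In the deletion strain RPL9B was also higher under nitrogen limitation, by 0.55 ± 0.15 (limma adjusted p = 0.00995). The second higher gene, RPL7A, had a difference of 0.74, and of 0.07 without carbon-limited reference arrays 2 and 3.

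**Figure D3:**
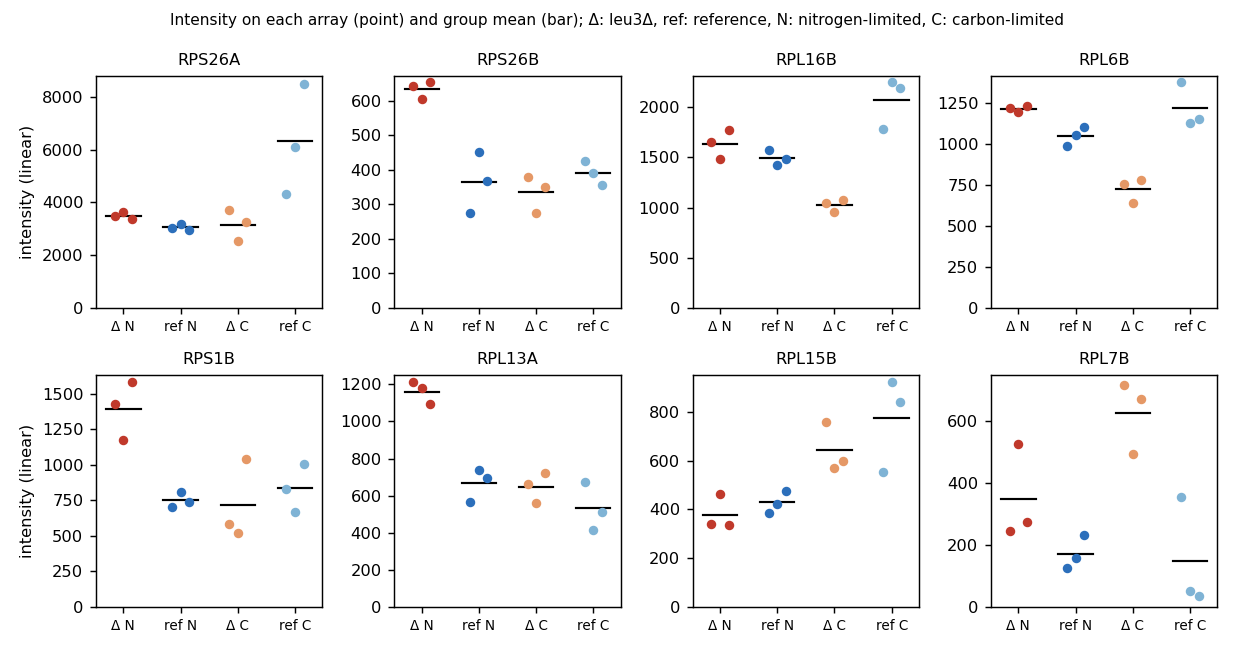
Linear intensity of 8 ribosomal protein genes is plotted for each array (points) with the group mean (bar), for the deletion strain and then the reference strain in nitrogen-limited medium and likewise in carbon-limited medium. RPS26B, RPS1B and RPL13A are highest in nitrogen-limited deletion cultures, RPL16B and RPL6B are lowest in carbon-limited deletion cultures, and 2 of the 3 RPL7B points of carbon-limited reference cultures lie at 50.4 and 35.6.

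The subunits were also counted apart. Under nitrogen limitation 6 of 47 large-subunit genes were higher and 0 lower in the deletion strain by limma, where 9 and 0 had an unadjusted p under 0.05, and 3 of 33 small-subunit genes were higher and 1 lower. Under carbon limitation 15 large-subunit genes were lower and 2 higher, and 8 small-subunit genes were lower and none higher in limma, where 12 and 1 had an unadjusted p under 0.05. The medians of the strain effect were 0.20 and 0.18 under nitrogen limitation and -0.33 and -0.27 under carbon limitation, for large and small subunits in that order. The difference between subunits was not tested.

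The stalk, a flexible arm of the large subunit that recruits translation factors, is built from RPP0 with the acidic proteins of RPP1A, RPP1B, RPP2A and RPP2B. RPP1B (YDL130W) read 3028, 2523 and 2961 in carbon-limited deletion cultures, against 3615, 4583 and 5954 in carbon-limited reference cultures, without overlap, a log2 difference of -0.71 ± 0.17 (limma adjusted p = 0.0075). RPP0 (YLR340W) read 2726, 2167 and 2752 in those deletion cultures, against 3428, 3626 and 3288 in the reference cultures, also without overlap, a log2 difference of -0.44 ± 0.14 (limma adjusted p = 0.0251). Without carbon-limited reference arrays 2 and 3 the differences were -0.35 for RPP1B (limma adjusted p = 0.264) and -0.44 for RPP0 (limma adjusted p = 0.169). RPP1A, RPP2A and RPP2B passed in none of the 5 contrasts, with strain effects of 0.23, 0.33 and 0.00 under nitrogen limitation and -0.20, 0.16 and -0.13 under carbon limitation. RPP1, the RNase P subunit, read 101, 103 and 106 in carbon-limited deletion cultures, against 82.2, 89.3 and 52.1 in reference cultures, a log2 difference of 0.51 ± 0.18 (limma adjusted p = 0.0412). It was 0.33 without carbon-limited reference arrays 2 and 3 (limma adjusted p = 0.243) and 0.07 with the actin term (limma adjusted p = 0.934).

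Both members of 31 paralogue pairs had a probe set of their own, and the change of A was compared with the change of B in each. An exact two-sided permutation test of array labels within each stratum, with 400 arrangements and a smallest possible p of 0.005, was adjusted over the 31 pairs. For limitation, averaged over strains, 8 pairs passed: RPL15, RPL17, RPP1 (the stalk genes RPP1A and RPP1B), RPP2, RPS14, RPS26, RPS27 and RPS28. For strain, averaged over limitations, 4 passed: RPL17, RPP2, RPS26 and RPS7. All these adjusted permutation p were 0.0387. Both copies of RPL17 are read by probe sets with fewer probes. The median absolute difference between paralogues was 0.21 for limitation and 0.10 for strain on the log2 scale.

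RPS26 differed between its copies in both comparisons. The limitation effect of A minus that of B was -0.77 in the deletion strain and -0.87 in the reference strain, an average of -0.82. The strain effect of A minus that of B was -0.64 under nitrogen and -0.73 under carbon limitation, an average of -0.68. RPS26A is read by a probe set with a reduced number of probes and RPS26B by a plain one. With carbon-limited reference array 1 alone the reference strain's limitation difference was -0.25, and the carbon-limited strain difference was -0.12.

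RPS28 had the largest average limitation difference, -0.87, with -0.95 in the deletion strain and -0.79 in the reference strain, and -0.16 in the reference strain with carbon-limited array 1 alone. RPS28A is read by a family probe set and RPS28B by one with fewer probes. RPL15 had 0.82, with 1.30 in the deletion strain and 0.34 in the reference strain, and -0.05 in the reference strain with carbon-limited array 1 alone. RPS27, RPS14 and the stalk pair RPP1A and RPP1B, each read by plain probe sets, had 0.68, 0.61 and 0.45. For RPS14 the reference strain's value was 0.75, and 0.61 with carbon-limited array 1 alone, and for RPS27 it was 0.91 and 0.80. The direction of these 3 pairs was the same in both strains: the limitation effect was more positive for A than for B.

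For the strain effect, RPS7 had an average difference of -0.50, with -0.23 under nitrogen and -0.77 under carbon limitation. With reference array 1 alone these were -0.06 and -0.28. RPL7 had the largest average, -0.97, with a permutation p of 0.045 and an adjusted p of 0.155, and it rested on carbon-limited reference arrays 2 and 3: with array 1 alone the carbon-limited value was -0.18, against -1.57 with all 3. RPL6, RPL14 and RPL16 had averages of 0.42, -0.42 and 0.41, with adjusted permutation p of 0.0664, 0.0517 and 0.0517. RPL6 and RPL16 are read by plain probe sets in both copies, and their carbon-limited strain differences were 0.72 and 0.67, with 0.73 and 0.69 for reference array 1 alone.

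**Figure D4:**
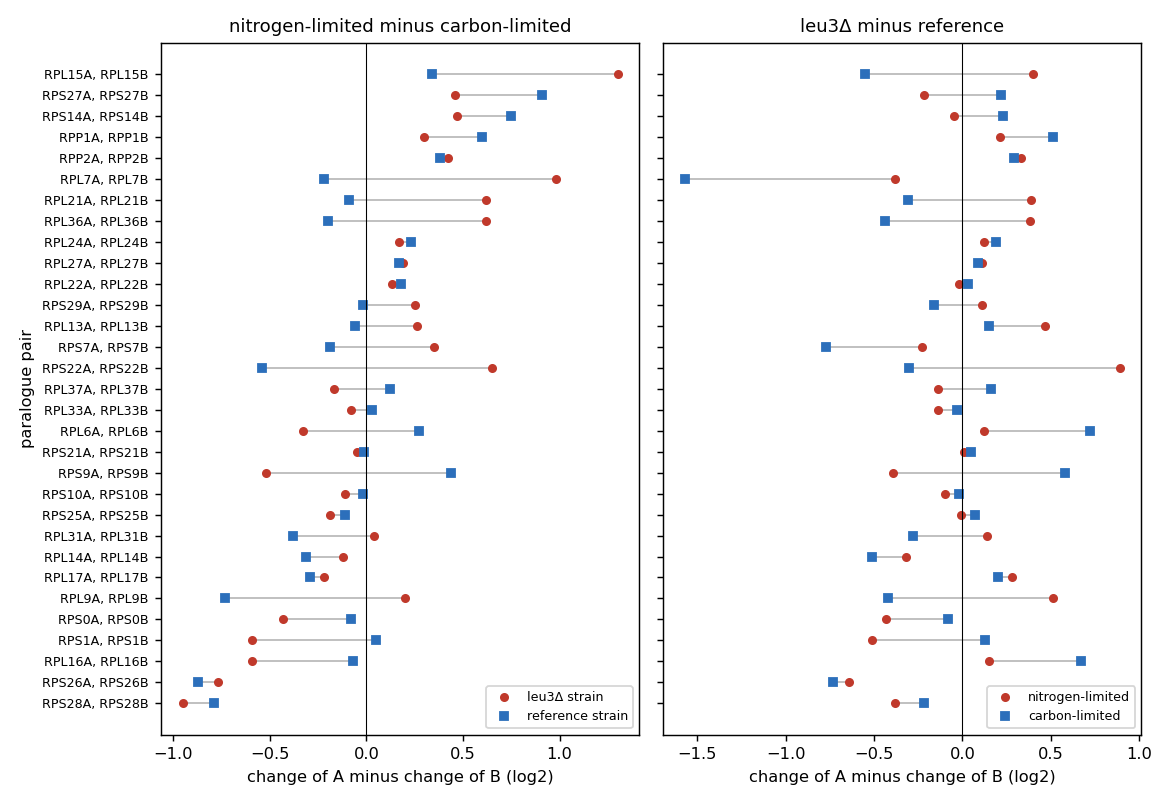
For 31 paralogue pairs the log2 change of A minus that of B is plotted for nitrogen against carbon limitation (left; circles, deletion strain; squares, reference strain) and for deletion against reference strain (right; circles, nitrogen-limited; squares, carbon-limited). RPS28 and RPS26 lie furthest left for limitation with both strains close together, and the carbon-limited RPL7 value of -1.57 is the most negative on the right.

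Genes without a probe set of their own were read through shared probe sets, which are assigned to more than 1 gene. The 27 gene sets seen only in this way had median log2 differences between deletion and reference strain of 0.13 under nitrogen and -0.28 under carbon limitation. Their median limitation differences were 0.13 in the deletion strain and -0.33 in the reference strain, and their median interaction was 0.44. Over all 37 shared gene sets, those also measured singly included, the median strain differences were 0.14 and -0.21. Interactions were positive in 33 and negative in 4, with a median of 0.41. The probe set shared by RPS9A and RPS9B had a carbon-limited strain difference of 1.11, against 0.35 and -0.23 when read singly. The one shared by RPL17A and RPL17B had an interaction of 0.02, against 0.71 and 0.64 singly. Neither shared value lay between the single ones, so shared probe sets cannot be taken as the sum over copies. RPL41A and RPL41B, which encode the smallest ribosomal protein, had the largest nitrogen-limited strain difference, 1.02, and an interaction of 1.19. These values carry no test. Of the 80 genes analysed singly, 50 were read by plain probe sets, 16 by family probe sets and 14 by probe sets with fewer probes, and the median interaction was 0.55, 0.41 and 0.48 in these classes.

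Other bright transcripts and genes of like length were set beside the members. In the tenth of tested genes with the highest mean intensity, 532 in all, 72 were ribosomal protein genes. These 72 had a median strain effect of 0.18 under nitrogen and -0.31 under carbon limitation, and the other 460 genes had -0.03 and -0.08. Median interactions were 0.51 for the ribosomal protein genes and 0.06 for the others. Gene length was set beside the effects because RNA integrity differed: for spans above 500 and up to 1000 bases the median interaction was 0.50 over 50 members and -0.24 over 1315 other genes, and for spans up to 500 bases it was 0.61 over 21 members and 0.08 over 647 other genes. For spans above 1000 and up to 1500 bases it was 0.35 over 7 members and -0.18 over 1204 other genes. The 2 longer members, RPL7A and RPL7B, had a median of -1.27, against -0.26 over 2074 other genes. No test of either difference was made.

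Regulators of ribosomal protein gene transcription were taken as a list of 27 genes. Under nitrogen limitation 6 of them were lower and none higher in the deletion strain by limma, with 9 and 0 at an unadjusted p under 0.05, and a list median of -0.27. Over all tested genes 16.1% were lower. The count was 3 without nitrogen-limited deletion array 1 and 2 without nitrogen-limited reference array 1. YAK1, a kinase that restrains growth, fell by 0.95 on the log2 scale. RIM15, a kinase of quiescence entry, and TOR1, a catalytic subunit of TORC1, fell by 0.93 each. CKA1, a catalytic subunit of casein kinase 2, fell by 0.67, and TOR2 and SCH9 fell by 0.54 and 0.53. Under carbon limitation 5 were higher and none lower, with 5 and 0 at an unadjusted p under 0.05, against 17.4% higher of all tested genes. Largest was SFP1, an activator of ribosomal protein genes, at 0.86 ± 0.24 (limma adjusted p = 0.0154). The count was 2 without carbon-limited reference array 2. SFP1 was at 0.18 without carbon-limited reference arrays 2 and 3 (limma adjusted p = 0.622), and none of the 27 passed then.

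CRF1, a corepressor of ribosomal protein genes that acts through Fhl1, was lower under nitrogen limitation in both strains, with limma adjusted p of 4.25e-07 in the deletion strain and 8.03e-08 in the reference strain. Its 6 nitrogen-limited arrays all read below the floor of 12 to which low values were set, against means of 43.8 ± 11.6 in carbon-limited deletion cultures and 51.6 ± 3.10 in carbon-limited reference cultures (SD, n = 3 each). The fitted log2 differences of -1.83 and -2.10 were set by that floor and are bounds. IFH1, the coactivator that binds Fhl1, was higher by 0.77 ± 0.15 and 0.85 ± 0.15 (limma adjusted p = 0.00109 and 0.000387). In the reference strain 15 of the 27 were higher and 1 lower, against 32.6% and 14.9% of all tested genes. In the deletion strain 3 were higher and 2 lower, against 18.1% and 17.8% of all tested genes. Without carbon-limited reference arrays 2 and 3, 9 were higher in the reference strain.

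Proteins bound to the ribosome but outside the symbol pattern gave 19 tested genes, and SSB1 and SSB2 had no probe set of their own. Under carbon limitation 5 were lower and 3 higher in the deletion strain, against 10.7% and 17.4% of all tested genes, and 2 were lower and 2 higher without carbon-limited reference arrays 2 and 3. GCN1, an activator of the amino acid starvation kinase Gcn2, had a log2 difference of 2.54, and of 1.27 without those arrays. With the actin term it was 0.28 (limma adjusted p = 0.799). LSO2, a factor of ribosome recovery from starvation, had 1.12, 0.74 without those arrays and 0.57 with the actin term (limma adjusted p = 0.418). NAT5, a subunit of the ribosome-bound N-terminal acetyltransferase, had a log2 difference of -1.93 ± 0.19 (limma adjusted p = 1.64e-05), and MBF1, a transcriptional coactivator also known to prevent frameshifting on stalled ribosomes, one of -1.13 ± 0.18 (limma adjusted p = 0.000611). Without carbon-limited reference arrays 2 and 3, NAT5 and MBF1 were at -1.95 and -1.18. With the actin term they were at -1.97 and -1.23 (limma adjusted p = 0.0199 and 0.118). Both were also higher under nitrogen than carbon limitation within the deletion strain, by 2.20 and 1.29. HEF3, the second translation elongation factor 3 gene, was lower under nitrogen limitation, with log2 differences of -2.55 in the deletion strain and -3.19 in the reference strain.

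Of 19 chaperones and carriers of ribosomal proteins, none passed between the strains under nitrogen limitation in limma, with 2 higher and 1 lower at an unadjusted p under 0.05. Under carbon limitation 3 were higher and 3 lower, against 17.4% and 10.7% of all tested genes, and 0 and 2 without carbon-limited reference arrays 2 and 3. SYO1, which carries Rpl5 and Rpl11 to the nucleus, was at -0.65, and at -0.90 without those arrays. With the actin term it was at -0.83 (limma adjusted p = 0.277). SYO1 read near the floor of 12, with means of 14.3 ± 0.872 in deletion and 22.8 ± 5.52 in reference cultures (SD, n = 3 each). YAR1, which binds Rps3, was at 0.67, and at 0.25 without carbon-limited reference arrays 2 and 3. Of 11 tested modifiers of ribosomal proteins, 1 was higher under nitrogen limitation, against 6.05% of all tested genes, the N-terminal methyltransferase gene TAE1 at 0.56 ± 0.16 (limma adjusted p = 0.023). TAE1 was also higher under carbon limitation, at 0.74 ± 0.16 (limma adjusted p = 0.00454).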

How the data were processed

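Per the labels, total RNA from chemostat cultures was hybridised to 1-channel GeneChip arrays, 12 in all. The deposited values are linear intensity per probe set, which the authors had scaled to a common mean without the lowest and highest 2% of probe sets; software, background treatment, detection calls and genome build were not given in the sources used here. The table held 9335 probe sets, 6504 of them assigned to 1 gene. Probe set genes came from the platform annotation, updated through RefSeq, and coordinates were not used.

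Values under 12 were set to 12 and log2 was taken of the deposited intensity. Genes above 12 on at least 3 arrays were tested. One limma 3.58.1 model of 4 group means (R 4.3.3, lmFit and eBayes, 8 residual degrees of freedom) gave 5 two-sided contrasts, with Benjamini-Hochberg adjustment over the 5321 genes tested and a threshold of 0.05. Paralogue changes were compared with an exact permutation test. The members and gene lists were chosen with earlier results of these data known. Named genes were, per contrast, up to 10 members past the threshold in each direction by size, all stalk genes, RPP1, the 6 most different paralogue pairs for each effect, and up to 4 genes per list and contrast. TOR2, SCH9, RPL28, RPS2, RPS3, RPL30, RPL32 and RPL41A and RPL41B, genes kept under alternatives and genes with the widest ranges were added after their values were seen. On simulated data the fit recovered 29.9%, 83.6% and 100% of changes of 0.5, 1 and 2 on the log2 scale. These were placed in 67, 67 and 66 genes of the nitrogen-limited deletion group alone, with 1 spread per gene for all groups. On the real arrays the median SD within a group was 0.15 to 0.25 over all genes. Recovery in the other contrasts was not measured. The number of arrays limits the precision. Alternatives covered scaling, floor, filter, probe set choice, variance model, the actin ratio, arrays left out and the replicate block. Replicate numbers did not pair the arrays, with correlations of same-numbered deviations between -0.31 and 0.16. Promoter motifs and protein sequences were not analysed here.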

Additional observations from a re-analysis of the deposited data

Results flagged for a closer look

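For 10 ribosomal protein genes the strain effect differed between the 2 limitations by the test of the difference itself in limma. The strain effect under nitrogen limitation exceeded that under carbon limitation by 1.23 on the log2 scale for RPL36A, 1.16 for RPS1B, 1.15 for RPS26A, 1.14 for RPL16B, 1.09 for RPL21A, 1.05 for RPS26B, 1.01 for RPL15A, 0.96 for RPL6B, 0.87 for RPL37B and 0.80 for RPL29. These are the 10 largest of the 25 that passed. RPL15A, RPL16B, RPL21A, RPL6B and RPS26B also passed without the carbon-limited reference arrays of high actin ratio, while RPS1B, RPL29, RPL36A, RPS26A and RPL37B did not, with interactions of 1.17, 0.67, 0.85, 0.66 and 0.60.

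Outside the yeast genes, the bacterial control transcript ThrX-3 read 3094.8 on nitrogen-limited reference array 2 and 2747.7 on nitrogen-limited reference array 3, and at most 1.6 on the other 10 arrays.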

How the results depend on the processing

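All 5 medians kept their direction under every setting except that of the reference strain's limitation effect, 0.09 after quantile normalization, and the cause was not tested. Median-centring each array gave 17, 43, 52 and 53 called members for the strain effect under nitrogen, the strain effect under carbon, the reference strain's limitation effect and the interaction, with medians of 0.33, -0.46, -0.53 and 0.81; the median of all tested genes was then 0.04, -0.12, -0.07 and 0.11, against -0.11, 0.05, 0.19 and -0.20 as reported. Over all genes the split of higher and lower calls became 538 and 485 (322 and 859 as reported), 539 and 996 (926 and 568), 951 and 1370 (1737 and 795) and 614 and 241 (279 and 697). Quantile normalization gave 7, 10 and 9 calls for the last 3, with medians of -0.07 and 0.27 for the carbon-limited strain effect and the interaction, and an all-gene split of 1284 and 917 for the reference strain's limitation effect. The actin term gave 0 (in limma, 8 at an unadjusted p under 0.05), 2 and 6 calls for the same 3, a carbon-limited strain median of -0.19 and -0.30 for RPL7B. Over all genes the split of higher and lower calls with that term was 16 and 38, 823 and 466, and 148 and 269. Without carbon-limited reference arrays 2 and 3 there were 2, 7 and 8 calls. Without nitrogen-limited reference arrays 2 and 3 there were 6, 16 and 9 for the nitrogen-limited strain effect, the reference strain's limitation effect and the interaction. Plain probe sets alone, with fewer members, gave 4 for the nitrogen-limited strain effect and 15 for the deletion strain's limitation effect. Fitting only the groups compared gave 11 for the carbon-limited strain effect, and a trended robust variance 38 for the interaction.

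Leaving out 1 array gave 4 to 13 calls (median 0.16 to 0.23) for the nitrogen-limited strain effect, 15 to 31 (-0.36 to -0.24) for the carbon-limited one, 11 to 26 (0.19 to 0.30) for limitation in the deletion strain, 21 to 34 (-0.28 to -0.22) in the reference strain and 11 to 33 (0.46 to 0.54) for the interaction. Counts moved over 1.5 times without nitrogen-limited deletion array 1, 2 or 3 (6, 5 and 4) or reference array 1 or 3 (5 and 5) for the first, and without carbon-limited deletion array 2 (15) for the second. For limitation in the deletion strain they did so without nitrogen-limited array 1 or 3 (11 and 12) or carbon-limited array 2 (11). For the interaction they did so without nitrogen-limited deletion array 1 or 3 (11 and 12), nitrogen-limited reference array 1 or 3 (11 and 14) or carbon-limited deletion array 2 or 3 (11 and 15). The replicate block gave 8, 23, 22, 23 and 17 calls in the order of the report, each within 1.5 times of the unblocked count. Of 2040 values of single genes, 1798 kept direction and side of the threshold, 229 lost the call, 12 gained it and 1 reversed.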
